A study of Mus musculus with 6 samples.

Results

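The genes examined here encode the ISG15 conjugation system of the mouse. They were taken by name from the deposited table as Isg15, Uba7, Ube2l6, Herc6 and Usp18. All 5 were found under their current symbols, among 23224 genes listed, and all 5 passed the low-count filter.

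ISG15 is a small ubiquitin-like protein that interferon induces strongly. The E1 enzyme UBA7 activates it, the E2 enzyme UBE2L6 carries it, and HERC6 is the main ISG15 ligase of the mouse, joining it to target proteins. USP18 cuts ISG15 off its targets again and, apart from that activity, binds the interferon receptor chain IFNAR2 and dampens type I interferon signalling. The whole set is known as a target of type I interferon in myeloid cells, where free ISG15 can also be secreted and act as a cytokine.

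The RNA came from dendritic cells (DC) sorted from subcutaneous MC57-SIY tumours of C57BL/6 mice, 7 days after implantation. MC57 is a fibrosarcoma line, and SIY is a model antigen that CD8+ T cells recognise. Each of 3 groups had 2 libraries: CD103+ DC1 of Rag2-/- hosts, ISG+ DC of Rag2-/- hosts and ISG+ DC of WT hosts. CD103+ DC1 are conventional DC that excel at presenting antigen taken up from other cells to CD8+ T cells. The labels do not say how ISG+ DC were gated. Rag2 is needed to assemble antigen receptors, and mature T and B cells are therefore missing from the whole Rag2-/- animal. Tumours were pooled before sorting, and each sample type came from 2 independent experiments. CD103+ DC1 were sequenced from Rag2-/- hosts only, so no WT value of that population was compared.

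Total counts ran from 6023497 to 15368595 per library. CD103+ DC1 replicate 3 had the lowest total and stood apart from the rest. The RNA Rpph1 made up 1.11% of this library and 0.303% to 0.383% of the other 5. Its Spearman correlation over genes with them was 0.768 to 0.882, while the pair of Rag2-/- ISG+ DC libraries reached 0.934 and the WT pair 0.920. Rag2 had 2 to 40 counts in the libraries labelled Rag2-/- and 0 in those labelled WT. The deleted part of Rag2 is not described in the labels, so these counts are no check of the genotype, and host names are used as labelled. Marker sums separated the sorted populations. DC1 markers summed to 2857 and 1815 CPM (counts normalised to library depth and scaled by TMM factors) in CD103+ DC1 and to 167 to 255 in ISG+ DC. CD11b+ DC markers summed to 122 to 146 in CD103+ DC1 and to 2395 to 3170 in ISG+ DC. Since the gate of ISG+ DC is not given, these genes are not known to define it, and macrophage and monocyte markers summed to 2073 to 5805 CPM there. Of the genes that mark DC in general, Flt3 was at 490 and 330 CPM in CD103+ DC1, 145 and 91.3 CPM in Rag2-/- ISG+ DC, and 15.8 and 32.4 CPM in WT ISG+ DC. Itgax went the other way, at 165 and 159 CPM in CD103+ DC1 and 493 and 526 CPM in Rag2-/- ISG+ DC. In WT ISG+ DC it was at 321 and 337 CPM. Within Rag2-/- hosts, 1 of the 4 such markers passed the test used below as higher in ISG+ DC and 1 as lower. Of all genes 2.83% and 0.862% did so.

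Interferon acts on many of its target genes through promoter elements known as interferon-stimulated response elements (ISRE), to which STAT and IRF factors bind. The ISRE pattern searched here was 2 copies of GAAA with any 2 bases between them, on either strand. RefSeq promoters (GRCm38.p6) were found for 4 of the 5 genes, and Usp18 was not among them. The 120 bases before the start site are shown for the modifier, for the E1 gene and for the E2 gene, which differ in their matches. Each runs 5′ to 3′ on the gene's own strand, and capitals mark matches to this pattern or to its shorter part AANNGAAA, on either strand.
Isg15: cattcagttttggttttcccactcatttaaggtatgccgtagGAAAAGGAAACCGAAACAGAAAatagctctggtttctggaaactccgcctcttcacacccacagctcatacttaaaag
Uba7: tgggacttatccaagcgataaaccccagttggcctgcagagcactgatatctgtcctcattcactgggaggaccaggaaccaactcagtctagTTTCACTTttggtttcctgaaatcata
Ube2l6: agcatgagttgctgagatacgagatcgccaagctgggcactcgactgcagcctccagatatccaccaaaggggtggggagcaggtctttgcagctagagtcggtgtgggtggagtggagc
The Isg15 stretch lies at chr4:156200819-156200938 on the minus strand, the Uba7 stretch at chr9:107975447-107975566 and the Ube2l6 stretch at chr2:84798708-84798827, both on the plus strand. In the 250 bases before its start, Isg15 held 3 overlapping matches to the ISRE pattern, between 78 and 57 bases before the start. Among 32851 promoter windows of that length, 2.98% held at least 1 match. The shorter AANNGAAA, searched after the sequences had been seen, occurs inside every match to the ISRE pattern. It was matched in Isg15 and once in Uba7, between 27 and 20 bases before the start, and 21.3% of all windows held it. Ube2l6 and Herc6 held neither pattern in their windows. The STAT pattern TTCNNNGAA, searched on both strands, and TATAAA on the gene strand were found in 0 of the 4 windows, against 7.02% and 7.59% of all windows.

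**Figure D1:**
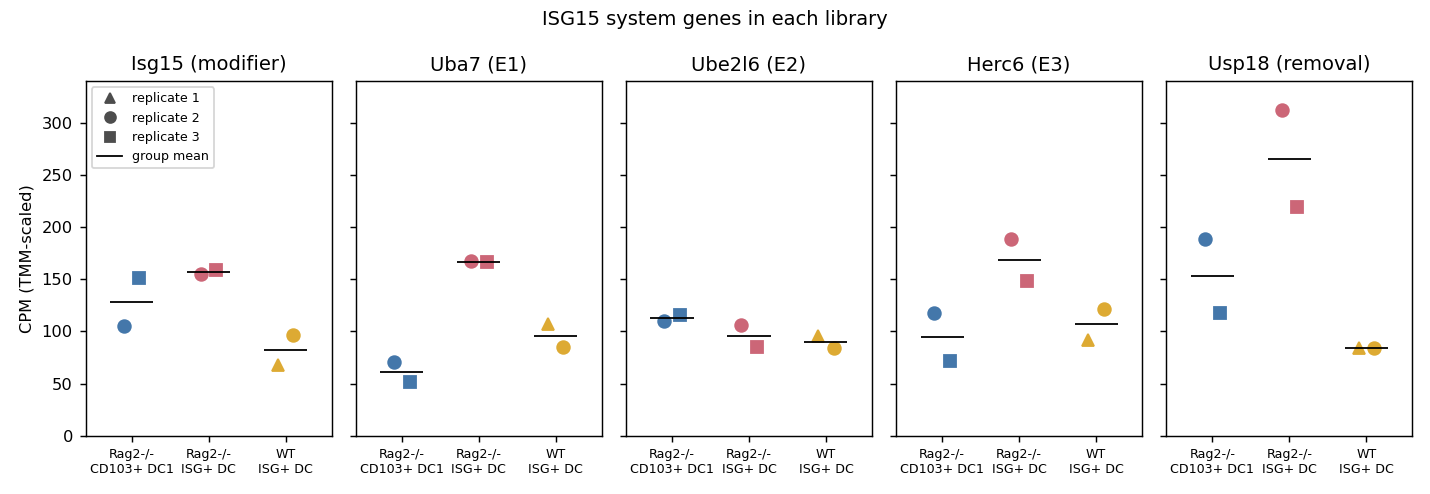
Level of each ISG15 system gene in CPM (linear axis from 0) in every library, coloured by group, with the marker shape giving the replicate number and the line the group mean. Isg15, Uba7, Herc6 and Usp18 are highest in both Rag2-/- ISG+ DC libraries, Isg15 by a small margin over CD103+ DC1 replicate 3. Isg15 and Usp18 are lowest in both WT libraries, Usp18 at 84.0 and 83.9 CPM. Ube2l6 stays between 84.1 and 116 CPM throughout.

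Isg15, the modifier itself, was at 105 and 151 CPM in CD103+ DC1, 155 and 159 CPM in Rag2-/- ISG+ DC, and 68.1 and 96.3 CPM in WT ISG+ DC. Values are given in the order of the replicate numbers, 2 and 3 for the Rag2-/- groups and 1 and 2 for WT. Both WT libraries lay below all 4 Rag2-/- libraries, and CD103+ DC1 replicate 3 came close to the ISG+ DC of its host. The groups therefore ranked Rag2-/- ISG+ DC, CD103+ DC1, WT ISG+ DC without overlap, but the gap between the first and the second was within the spread of CD103+ DC1.

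Uba7, the E1 enzyme that starts conjugation, was at 70.6 and 51.0 CPM in CD103+ DC1, 168 and 166 CPM in Rag2-/- ISG+ DC, and 107 and 84.6 CPM in WT ISG+ DC. The 3 groups did not overlap, with WT ISG+ DC in the middle. Its levels in Rag2-/- ISG+ DC were nearly equal between the libraries.

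Ube2l6, the E2 enzyme, was at 110 and 116 CPM in CD103+ DC1, 106 and 85.2 CPM in Rag2-/- ISG+ DC, and 95.8 and 84.1 CPM in WT ISG+ DC. The ISG+ DC of both hosts overlapped, and CD103+ DC1 lay just above them. It was the 1 gene of the 5 with its highest mean in CD103+ DC1.

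Herc6, the ligase, was at 118 and 72.1 CPM in CD103+ DC1, 189 and 148 CPM in Rag2-/- ISG+ DC, and 91.9 and 122 CPM in WT ISG+ DC. Rag2-/- ISG+ DC stood above the rest, while CD103+ DC1 and WT ISG+ DC overlapped.

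Usp18, the protease that removes ISG15, was at 189 and 118 CPM in CD103+ DC1, 312 and 219 CPM in Rag2-/- ISG+ DC, and 84.0 and 83.9 CPM in WT ISG+ DC. The groups did not overlap, with WT ISG+ DC lowest and nearly equal between its 2 libraries. In both Rag2-/- groups replicate 2 was the higher one.

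Per kilobase of the longest coding transcript (GENCODE M21, not the annotation behind the counts), the mean level of Isg15 in Rag2-/- ISG+ DC was 208 CPM per kilobase. Usp18 was at 150, Ube2l6 at 61.4, Uba7 at 52.2 and Herc6 at 35.3 CPM per kilobase there. In WT ISG+ DC the order changed, with Isg15 at 109, Ube2l6 at 57.7, Usp18 at 47.4, Uba7 at 30.0 and Herc6 at 22.4 CPM per kilobase. Usp18 thus ranked the second per length in Rag2-/- ISG+ DC and the third in WT ISG+ DC, as mean levels with no test between genes. In CD103+ DC1, Herc6 (19.9) and Uba7 (19.0 CPM per kilobase) were lowest and nearly equal.

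The first comparison set ISG+ DC against CD103+ DC1 within Rag2-/- hosts. Of the conjugation enzymes, the E1 gene Uba7 rose, by 2.74-fold, while the E2 gene Ube2l6 and the modifier Isg15 did not pass the test. Over all genes 488 of 13223, or 3.69%, passed edgeR's quasi-likelihood test at an adjusted p under 0.05, and 2.83% did so with a higher level in ISG+ DC. Leaving out replicate 2 of CD103+ DC1 raised the 488 to 2068, and leaving out its replicate 3 gave 774. With replicate 3 of Rag2-/- ISG+ DC left out, 278 passed. The median log2 fold change of the 5 genes was 0.79, against -0.02 over all genes tested. Groups did not overlap for all 5 genes, with 4 higher in ISG+ DC and 1 lower. Over all genes 23.9% and 22% were so placed.

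Uba7 had a log2 fold change of 1.45 ± 0.32 (SE, edgeR adjusted p = 0.0306), higher in both ISG+ DC libraries than in both CD103+ DC1 libraries. Without CD103+ DC1 replicate 3 it was 1.26 (edgeR adjusted p = 0.0154), and without replicate 2 it was 1.70. The call was lost without Rag2-/- ISG+ DC replicate 2 (1.45, edgeR adjusted p = 0.150), without replicate 3 (1.46, edgeR adjusted p = 0.171) and with only the 4 libraries compared (1.46, edgeR adjusted p = 0.0691).

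Usp18 had a log2 fold change of 0.79 ± 0.31 (edgeR adjusted p = 0.258) and Herc6 one of 0.82 ± 0.34 (edgeR adjusted p = 0.272), so neither passed. Both values moved with single libraries. Without CD103+ DC1 replicate 2 they were 1.17 and 1.22 and passed (edgeR adjusted p = 0.0113 and 0.0162), and without replicate 3 they were 0.51 and 0.54 and did not (edgeR adjusted p = 0.509 and 0.561). Leaving out replicate 2 of Rag2-/- ISG+ DC gave 0.51 and 0.64 (edgeR adjusted p = 0.734 and 0.687), and leaving out its replicate 3 gave 1.03 and 0.99 (edgeR adjusted p = 0.447 and 0.580). Isg15, at 0.30 ± 0.32 (edgeR adjusted p = 0.756), ranged from 0.05 without CD103+ DC1 replicate 2 to 0.60 without replicate 3. Ube2l6 was at -0.24 ± 0.30 (edgeR adjusted p = 0.811). Of 10 markers of macrophages and monocytes, 7 passed as higher in ISG+ DC and none as lower, where 2.83% and 0.862% of all genes did. Their sum was 481 and 631 CPM in CD103+ DC1 against 2073 and 2827 CPM in Rag2-/- ISG+ DC, and their part in these results was not tested. In bulk samples more cells that express a gene and more RNA of it per cell cannot be told apart.

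**Figure D2:**
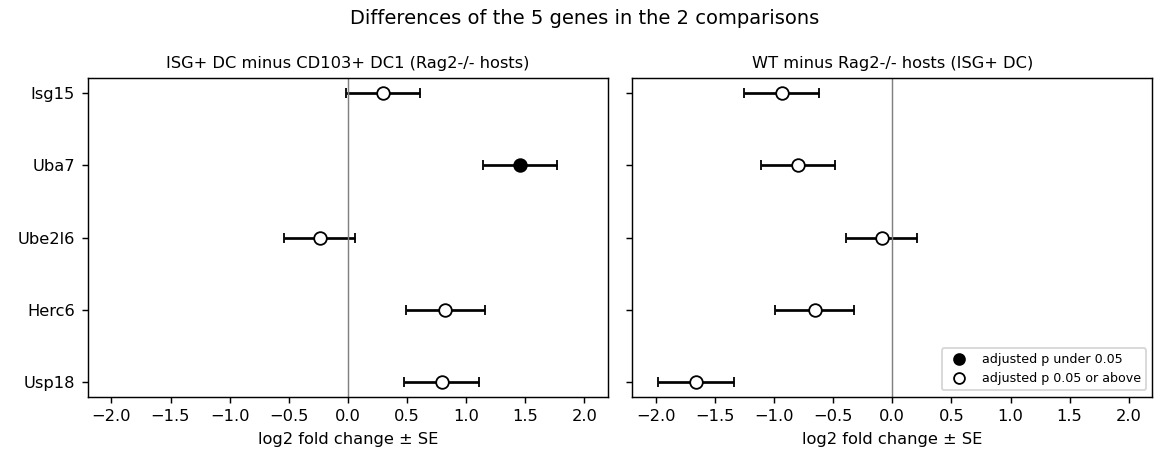
Log2 fold change with its standard error for each gene, in ISG+ DC against CD103+ DC1 of Rag2-/- hosts (left) and in WT against Rag2-/- hosts for ISG+ DC (right), with filled points for an adjusted p under 0.05. Uba7 on the left (1.45) is the filled point, and on the right all 5 estimates lie below 0, with Usp18 (-1.66) farthest from it.

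The second comparison set ISG+ DC of WT hosts against those of Rag2-/- hosts. None of the 5 genes passed edgeR's quasi-likelihood test, where 73 of 13223 genes, or 0.552%, did. Leaving out replicate 2 or replicate 3 of CD103+ DC1 raised the 73 to 702 or 801. With replicate 2 of Rag2-/- ISG+ DC left out 27 passed, and with replicate 1 of WT left out 198 did. At an unadjusted p under 0.05 there were 3 of the 5, against 9.88% of all genes. DESeq2 called 1 of the 5, Usp18, and 564 genes in all. The estimates of all 5 lay below 0, with a median log2 fold change of -0.80 against -0.03 over all genes tested. Both WT libraries lay below both Rag2-/- libraries for 4 of the 5, as they did for 23.1% of all genes. This comparison shares the Rag2-/- ISG+ DC libraries with the first, so the 2 estimates of a gene are not independent.

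Usp18 had a log2 fold change of -1.66 ± 0.32, a mean of 84.0 ± 0.0458 CPM in WT against 266 ± 65.8 CPM in Rag2-/- ISG+ DC (SD, n = 2 each). Its edgeR adjusted p of 0.0516 just missed the threshold. It passed with DESeq2 (-1.65, adjusted p = 0.00018), with no low-count filter (-1.67, edgeR adjusted p = 6.78e-05) and with only the 4 libraries compared (-1.67, edgeR adjusted p = 0.00561). Scaled by RLE factors instead, or not scaled, it did not pass (edgeR adjusted p = 0.0503 and 0.0567). Among fits with 1 library left out, it passed only where a CD103+ DC1 library was dropped, and that population is not part of this comparison. Leaving out a compared library gave values from -1.90, without Rag2-/- ISG+ DC replicate 3, to -1.39, without its replicate 2.

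Isg15 followed with a log2 fold change of -0.94 ± 0.32 (edgeR adjusted p = 0.298), which passed without CD103+ DC1 replicate 2 and without replicate 3 (edgeR adjusted p = 0.0339 and 0.0268). Uba7 was at -0.80 ± 0.31 (edgeR adjusted p = 0.391) and Herc6 at -0.66 ± 0.34 (edgeR adjusted p = 0.593). Ube2l6 was at -0.09 ± 0.30 (edgeR adjusted p = 0.983) and turned to 0.08 without Rag2-/- ISG+ DC replicate 2. Macrophage and monocyte markers summed to 5805 and 5122 CPM in WT against 2073 and 2827 CPM in Rag2-/- ISG+ DC. Of the 10, 1 passed as higher, Apoe, where 38 of 13223 genes did. Apoe was at 2032 and 1656 CPM in WT against 203 and 281 CPM. Estimates lay above 0 for 7 of the 10 and below 0 for 3. Fibroblast and tumour matrix markers summed to 339 and 37.3 CPM in WT against 1031 and 614 CPM. Of 4 markers of DC in general, 1 passed as lower in WT, where 0.265% of all genes did: Flt3 (log2 fold change -2.29, edgeR adjusted p = 0.0411). Zbtb46 was at -1.66 (edgeR adjusted p = 0.0534) and Itgax at -0.63 (edgeR adjusted p = 0.351). These 3 were lower in both WT libraries than in both Rag2-/- ISG+ DC libraries, as were 23.1% of all genes. The sum of the 4 was 6283 and 6440 CPM in WT against 6145 and 6478 CPM. Most of it was H2-Ab1, at 5914 and 6018 CPM in WT against 5350 and 5749 CPM. The part of any of these in the values above was not tested. Markers of T cells summed to at most 26.7 CPM in any library, and B cell markers to at most 4.47 CPM.

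Ratios between counts of 2 genes in the same library do not depend on how libraries are scaled. The ratio of Usp18 to Isg15, of removal enzyme to modifier, was 1.80 and 0.781 in CD103+ DC1, 2.01 and 1.38 in Rag2-/- ISG+ DC, and 1.23 and 0.872 in WT ISG+ DC. Both WT values lay below both Rag2-/- ISG+ DC values, while CD103+ DC1 spanned most of the range. On the log2 scale WT was lower by a mean difference of -0.68 (two-sided exact permutation p = 0.33, the smallest that 2 against 2 libraries allow). Between the populations the mean log2 difference was 0.49 (exact permutation p = 0.667), and -0.11 without CD103+ DC1 replicate 3. Adjusted over 5 ratios in 2 comparisons these p became 0.555 and 0.834.

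The other 4 ratios were chosen after values had been seen. The ratio of Usp18 to Herc6, of removal enzyme to ligase, was 1.60 and 1.64 in CD103+ DC1, 1.66 and 1.48 in Rag2-/- ISG+ DC, and 0.914 and 0.689 in WT ISG+ DC. All 4 Rag2-/- libraries, of both populations, were thus above both WT libraries (exact permutation p = 0.33 for ISG+ DC of the 2 hosts, adjusted p = 0.555). The ratio of Uba7 to Isg15 was 0.672 and 0.338 in CD103+ DC1 and 1.08 and 1.04 in Rag2-/- ISG+ DC, again without overlap, and 1.57 and 0.879 in WT ISG+ DC. The ratio of Ube2l6 to Isg15 was lowest in Rag2-/- ISG+ DC, at 0.685 and 0.535, against 0.768 to 1.41 in the other 4 libraries. The ratio of Herc6 to Isg15 was 1.12 and 0.477 in CD103+ DC1, 1.21 and 0.930 in Rag2-/- ISG+ DC, and 1.35 and 1.27 in WT ISG+ DC. The populations overlapped in it (exact permutation p = 0.667, adjusted p = 0.834), and WT lay above Rag2-/- ISG+ DC.

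**Figure D3:**
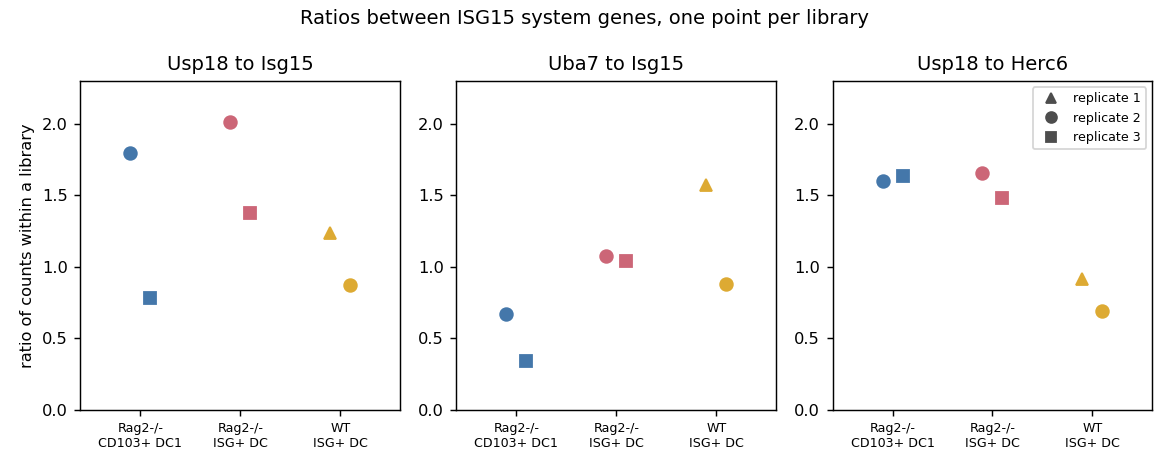
Ratio of the counts of 2 genes within each library (linear axis from 0), coloured by group, with the marker shape giving the replicate number. Usp18 to Herc6 lies between 1.48 and 1.66 in the 4 Rag2-/- libraries and at 0.914 and 0.689 in the WT libraries.

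Over the 6 libraries the 5 genes did not share 1 pattern. Pearson's r of log2 CPM was 0.83 between Uba7 and Herc6, 0.73 between Usp18 and Herc6 and 0.72 between Isg15 and Usp18, and it was -0.49 between Uba7 and Ube2l6. These values describe 6 libraries in 3 groups and share their scaling. Of 8106 genes at 10 CPM or more on average, the 6 most like the mean of the 5 genes, each scaled to the same spread, were Def6 (r = 0.98), Srf (0.98), the serum response factor, D11Wsu47e (0.98), Irf7 (0.98), the interferon regulatory factor that amplifies type I interferon, Zfp11 (0.97) and Trim21 (0.96), a cytosolic antibody receptor. An r above 0.9 was reached by 49 genes, and how many of the 8106 would reach it by chance over 6 libraries was not tested. Irf7 was at 688 and 515 CPM in CD103+ DC1, 935 and 817 CPM in Rag2-/- ISG+ DC, and 415 and 450 CPM in WT ISG+ DC. None of these 6 genes passed in either comparison, Irf7 included (edgeR adjusted p = 0.316 between populations and 0.0979 between hosts).

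Other genes of the pathway were read from a list of 17 further ligases, proteases and partners, of which 15 were tested. Between populations 1 fell, where 0.862% of all genes did, and none rose. Without CD103+ DC1 replicate 2 it was 4 higher and 1 lower, and without replicate 3 it was 1 of each. The gene that fell was Itgal, the CD11a chain of LFA-1, the receptor for extracellular ISG15. Itgal was at 258 and 211 CPM in CD103+ DC1, 43.4 and 48.9 CPM in Rag2-/- ISG+ DC, and 121 and 86.2 CPM in WT ISG+ DC. Its log2 fold change between populations was -2.34 ± 0.31 (edgeR adjusted p = 0.0023), and 12 of 12 alternatives kept the call. Itgb2, which encodes the CD18 chain that LFA-1 shares with other integrins, was at 1191 ± 174 against 621 ± 198 CPM (log2 fold change 0.94, edgeR adjusted p = 0.105) and passed with DESeq2 (adjusted p = 0.0245). Trim25, a further ISG15 ligase, was at 245 and 189 CPM in CD103+ DC1, 348 and 357 CPM in Rag2-/- ISG+ DC, and 483 and 581 CPM in WT ISG+ DC. The 3 groups did not overlap, and WT ISG+ DC were highest, whereas Herc6 was highest in Rag2-/- ISG+ DC. Trim25 passed in neither comparison (log2 fold change 0.70 and 0.59, edgeR adjusted p = 0.195 and 0.439). Between hosts none of the 15 passed edgeR's test, and 2 had an unadjusted p under 0.05, against 9.88% of all genes. DESeq2 called 1 of the list, Itgal (log2 fold change 1.18, adjusted p = 0.00949), and 564 genes in all. The medians of the list were 0.40 between populations and 0.08 between hosts.

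USP18 acts on the receptor for type I interferon, and 9 of 12 receptor and signalling genes listed were tested. The receptor chains Ifnar1 and Ifnar2, the kinases Jak1 and Tyk2 and the factors Stat2 and Irf9 passed in neither comparison. Of the 3 interferon genes that were listed and not tested, Ifnk had 63 and 4 counts in CD103+ DC1, 0 and 8 in Rag2-/- ISG+ DC, and 2 and 0 in WT ISG+ DC. Ifnb1 and Ifne had 0 counts in all 6 libraries. A count of 0 allows up to 3 counts, which is 0.189 to 0.514 CPM depending on the library, for counting error alone.

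Socs3, an inhibitor of cytokine receptor signalling, was the 1 gene of the 9 to pass, and rose between populations, where 2.83% of all genes did. It was at 38.8 and 46.9 CPM in CD103+ DC1, 150 and 97.2 CPM in Rag2-/- ISG+ DC, and 335 and 349 CPM in WT ISG+ DC. The groups did not overlap, and WT ISG+ DC were highest. Its log2 fold change was 1.53 ± 0.30 between populations (edgeR adjusted p = 0.0184), a call lost without Rag2-/- ISG+ DC replicate 2 (edgeR adjusted p = 0.176) and with only the 4 libraries compared. Without CD103+ DC1 replicate 2, 2 genes of the list rose. Between hosts it was 1.47 ± 0.30 (edgeR adjusted p = 0.0587). None of the 9 passed edgeR's test there, and 1 had an unadjusted p under 0.05, against 9.88% of all genes. DESeq2 called 1 of the list and 564 genes in all. In both cases the gene was Socs3 (DESeq2 adjusted p = 0.000635). The medians of the 9 were 0.33 and 0.22.

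Among 18 genes whose proteins have been reported to carry ISG15, 17 were tested and 4 rose between populations, where 2.83% of all genes did, with none lower. They were Tgm2, a transglutaminase (10.7-fold), Ifit1 (4.82-fold), which binds viral RNA, its relative Ifit3 (7.13-fold), and Ddx58, the RNA sensor RIG-I (6.44-fold). All 12 alternatives kept these 4 calls, though without CD103+ DC1 replicate 2 the log2 fold change of Tgm2 went from 3.43 to 4.51 and that of Ifit3 from 2.83 to 3.54, and 5 of the list rose and 2 fell. Whether similar genes of the Ifit family shared reads was not tested. The list's median was 0.38. Between hosts 2 of the 17 fell in WT, where 0.265% of all genes did: Ifit3 by 2.39 ± 0.37 and Mx1, an antiviral GTPase, by 1.78 ± 0.25 on the log2 scale (edgeR adjusted p = 0.0224 and 0.0159). The call of Ifit3 was lost without Rag2-/- ISG+ DC replicate 2 (edgeR adjusted p = 0.0721), and so was that of Mx1, which was also lost without WT ISG+ DC replicate 2. With 1 library left out 0 to 7 of the list were called, with 0 for Rag2-/- ISG+ DC replicate 2 and 7, of which 5 fell and 2 rose, for each CD103+ DC1 library in turn. Tgm2 did not follow, at 311 and 379 CPM in Rag2-/- ISG+ DC and 798 and 592 CPM in WT ISG+ DC.

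Ubiquitin and the other ubiquitin-like systems, such as NEDD8, SUMO and UFM1 with their own E1 and E2 enzymes, gave a background for the ISG15 enzymes. Of 34 such genes tested, none passed edgeR's test in either comparison, with 1 and 0 at an unadjusted p under 0.05 (14.9% and 9.88% of all genes) and none called by DESeq2. Their median log2 fold change was -0.37 between populations and -0.03 between hosts. Ube2l3, the ubiquitin E2 closely related to Ube2l6, was at 126 and 363 CPM in CD103+ DC1, 180 and 175 CPM in Rag2-/- ISG+ DC, and 135 and 166 CPM in WT ISG+ DC. The 2 CD103+ DC1 libraries spanned all the others. Without CD103+ DC1 replicate 2, 3 of the 34 rose and 5 fell between populations.

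**Figure D4:**
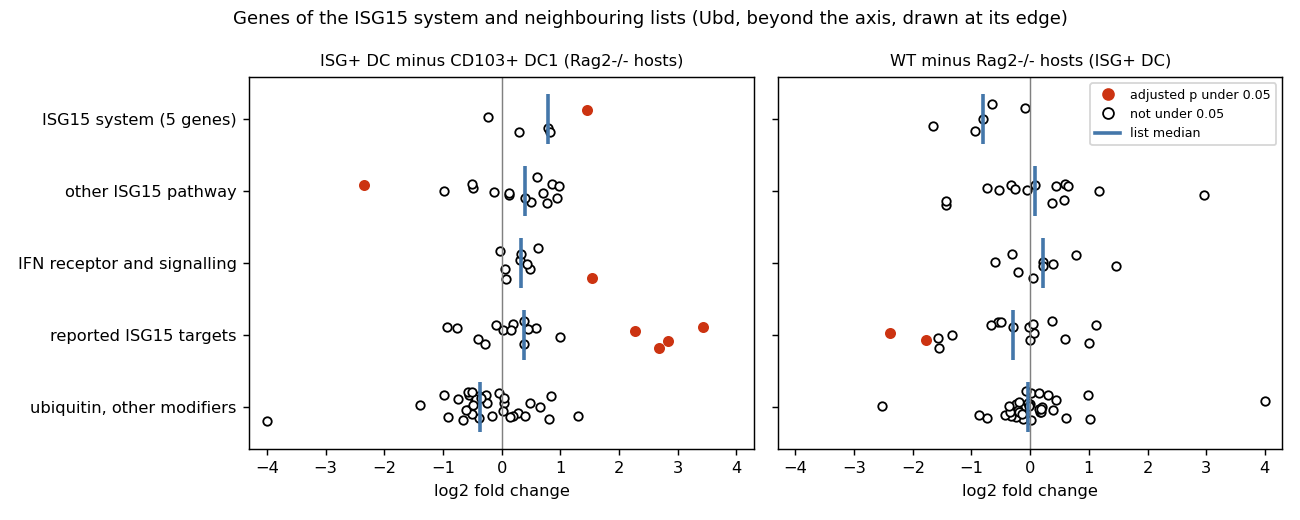
Log2 fold change of each tested gene by list, in ISG+ DC against CD103+ DC1 of Rag2-/- hosts (left) and in WT against Rag2-/- hosts for ISG+ DC (right). Red points have an adjusted p under 0.05, blue lines are list medians, vertical scatter is for display, and Ubd, whose values of -5.33 and 7.56 rest on few counts, is drawn at the axis edge. The median of the ISG15 system is 0.79 on the left and -0.80 on the right, while that of the ubiquitin and other modifier genes is -0.37 and -0.03.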

How the data were processed

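The deposited table holds estimated counts from RSEM, without normalization, and 16.1% of its values are fractional. Bowtie 1.2.3, RSEM 1.3.1 and the build mm9 are named in the submitters' processing notes. For annotation and strand setting, nothing is given in the sources used here. RSEM divides reads that fit several genes: all 6 values of Ube2l6, 4 of Uba7, 2 of Isg15, 1 of Usp18 and 0 of Herc6 were not whole. A stranded total RNA kit for low input was used, per the labels' protocols.

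Rounded counts were tested with edgeR 4.0.16 in R 4.3.3 (filterByExpr, TMM, glmQLFit, glmQLFTest, two-sided, Benjamini-Hochberg over 13223 genes, threshold 0.05). One fit over all 6 libraries gave both comparisons (3 residual degrees of freedom, prior 7.34). Standard errors were derived from the fold change and F. TMM factors scale the CPM, and log2 CPM for correlations has a prior count of 2. DESeq2 1.42.0, other scalings, no filter, fewer libraries and each library left out were alternatives. The procedure was tested on simulated data with 4-fold and 16-fold changes in genes at 10 CPM or more on average. Of the 4-fold changes it recovered 45% between populations and 52% between hosts. Of its calls 3.73% and 7.74% were false. The simulated counts were drawn with the spread that edgeR had estimated here, and only 100 genes per fold differed between groups. These shares hold for that setting and are not error rates of the real data. p-values measure the spread between libraries of pooled tumours.

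The members and lists were chosen with earlier results of these data known. All 5 genes are named, then list genes that passed in a comparison (at most 4 for each of the 2 longer lists), then the 6 genes closest in pattern. Trim25, Itgb2, Ube2l3, Ifnb1, Ifne, Ifnk, Flt3, Zbtb46, Itgax, H2-Ab1 and Apoe, and the list genes named as not passing, were added after their values were seen. Of the listed genes, 4 were not found in the table, and 1 gene is not reported here.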

Additional observations from a re-analysis of the deposited data

How the results depend on the processing

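Of 115 values of the 5 genes under alternatives, 114 kept their direction. The exception was Ube2l6 between hosts, at 0.077 without Rag2-/- ISG+ DC replicate 2 and from -0.24 upward with any other library left out. Calls changed in 12: 3 for Uba7 between populations were lost, and 9 for Usp18, Herc6 and Isg15 were gained. The cause was not tested.

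Between populations 488 genes were called, 1087 with no low-count filter, 1112 with DESeq2, 297 with only the 4 libraries compared, and 278 to 2068 with 1 library left out. Between hosts 73 were called, then 555, 564, 444 and 27 to 801 in the same order. Of the 5 genes, 1 was called between populations, 0 with only the 4 libraries compared and 0 to 3 with 1 left out. Between hosts it was 0, then 1 with no filter, with DESeq2 and with the 4 libraries, and 0 to 2 with 1 left out. For other pathway genes 1 became 2 with no filter and with DESeq2 and 1 to 5 with 1 left out, and between hosts 0 became 1, 1 and 0 to 2. For receptor and signalling genes 1 became 0 with the 4 libraries and 0 to 2 with 1 left out, and between hosts 0 became 1 with no filter, DESeq2 and the 4 libraries, and 0 to 1 with 1 left out. For reported targets 4 became 4 to 7 with 1 left out, and between hosts 2 became 6 with no filter, 6 with DESeq2, 7 with the 4 libraries and 0 to 7. For ubiquitin and related genes between populations 0 became 1 with no filter and 0 to 8 with 1 left out. The difference in the log2 ratio of Usp18 to Isg15 ran from -0.11 to 1.09 between populations and from -0.95 to -0.41 between hosts with 1 library left out.

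Replicate numbers 2 and 3 occur in both Rag2-/- groups, but the sources do not say that a number marks a shared experiment, and deviations of same-numbered libraries correlated at 0.016. With the replicate block, fitted on the 4 libraries of Rag2-/- hosts alone, 659 genes were called between populations. Uba7 was then at 1.47 (edgeR adjusted p = 0.0276). The same 4 libraries without the block gave 297 genes, and Uba7 at 1.46 did not pass (edgeR adjusted p = 0.0691). Calls among the 5 genes with the block were those of the fit over all 6 libraries. No paired analysis was possible between hosts because these groups share 1 number. With 2 libraries per group, a p that misses the threshold does not show that Herc6 or Isg15 did not differ.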
